A study of Mus musculus with 9 samples.

Results

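The 10 genes described here encode the receptors, the ligand and the first adaptors that act upstream of osteoclast differentiation: Tnfrsf11a (RANK), Csf1r and Csf1 (the M-CSF receptor and its ligand), Traf6, Oscar, Trem2, Tyrobp, Syk, Plcg2 and Gab2. They were taken by gene symbol, and each of the 10 symbols was found on 1 of the 23282 gene rows of the series. The measured cells were RAW264.7, a single mouse macrophage line labelled as BALB/c and as tissue blood lymph, at passage 30. The 9 libraries fall into 3 groups of 3. The negative control (NC) received RANKL alone at 50 ng/mL by the study's methods, the SF group received RANKL and 10 µg/mL of proteins extracted from the surface of Propionibacterium freudenreichii MJ2, and the MJ group was treated with heat-killed MJ2 at 10000000 cells/mL. All treatments lasted 4 days. Whether each MJ library was also given RANKL is not stated in its labels. NC and SF both received RANKL, so SF against NC does not measure the response to RANKL. If the MJ libraries lacked it, MJ against NC and SF against MJ would also differ in RANKL, and the effects of RANKL and of the bacterial cells cannot be told apart there.

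RANK is the receptor through which RANKL starts osteoclast differentiation, and it passes the signal on by binding TRAF6 in the cytoplasm. Signalling through the M-CSF receptor keeps macrophages and osteoclast precursors alive and dividing. Another input, called co-stimulation, comes from receptors such as OSCAR and TREM2, which signal through small partner proteins that carry an immunoreceptor tyrosine-based activation motif (ITAM). The kinase SYK docks on the phosphorylated ITAM and activates phospholipase C gamma 2, which raises calcium and so feeds the transcription factor NFATc1. RAW264.7 cells form osteoclast-like cells with RANKL and no added M-CSF.

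The docking sequences at the centre of this pathway are shown to make these links concrete. In the coding sequence of Tyrobp (the partner protein DAP12), 1 match to the paired tyrosine motif was found, read as tyrosine, 2 residues, leucine or isoleucine, then 6 to 12 residues and the same again. It lies on the plus strand of GRCm38 at chr7:30415670-30417382, across the junction of exons 4 and 5 of 5, and codes for residues 92 to 106 of 114. Capitals mark the codons of the tyrosines and of the leucines or isoleucines.
Tyrobp ITAM: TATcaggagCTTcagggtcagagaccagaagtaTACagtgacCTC
In the coding sequence of Tnfrsf11a, 4 matches to the TRAF6-binding motif were found, read as proline, any residue, glutamate, 2 residues and an acidic or aromatic residue. The first, at residue 74, lies in the extracellular part of the receptor, where TRAF6 cannot bind. The others, 3 in number, lie in exon 9 of 10, on the plus strand of chromosome 1 of GRCm38, in the cytoplasmic part. Capitals mark the codons of the 3 fixed positions, and the sites start at residues 340, 373 and 447 and span chr1:105827222-105827239, chr1:105827321-105827338 and chr1:105827543-105827560.
Tnfrsf11a motif at residue 340: CCCacaGAGgatgagTAC
Tnfrsf11a motif at residue 373: CCCctgGAAgtggggGAG
Tnfrsf11a motif at residue 447: CCTgggGAGgaccatGAA
These are the sequences of the reference genome. The libraries were read from the 3′ end of each mRNA, and whether reads reached these stretches was not examined.

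Levels are given as adjusted reads, which are 2 raised to the deposited log2 value, minus 1. They summed to between 5930926 and 6503682 per library. Because only the 3′ end of an mRNA is read, a value does not grow with transcript length, and values are compared between groups and not between genes. A gene was called changed where limma gave an adjusted p under 0.05 and the fold change was 2 or more. It was tested only if 3 or more of the 6 libraries held 10 or more adjusted reads of it. All fold changes are on the scale of log2(adjusted reads + 1), and with 3 libraries against 3 an exact two-sided permutation test of 1 gene can give no p below 0.1. The labels do not say whether the libraries of a group came from separate cultures, so p-values measure the spread between these libraries, which may be technical. In 3 libraries, 1 of each group (NC replicate 2, MJ replicate 1 and SF replicate 3), between 2454 and 3195 rows held a value above 0 but under 0.5 adjusted reads, while the other 6 libraries held no such value. Of the markers of other cell types, all 5 lymphocyte and all 4 epithelial genes on file stayed under 10 adjusted reads in every library, and 3 and 2 of them were at 0 throughout. The summed level of 6 fibroblast or osteoblast markers was 0.860 to 51.2 adjusted reads. All 9 macrophage markers were measured, and their summed level was 10374 to 11288 adjusted reads in NC, 19785 to 20169 in MJ and 18564 to 20426 in SF. The summed level of 8 osteoclast markers ran the other way, from 17008 to 28174 in NC to 12025 to 13937 in MJ and 4947 to 7264 in SF. With surface proteins 6 of 7 tested osteoclast markers fell (7.32% of all genes tested) and 6 of 9 macrophage markers rose (10.2% of all genes). With heat-killed MJ2 2 of 7 fell (0.897% of all genes) and 5 of 9 rose (3.37% of all genes). Some markers lay on the other side without being called, such as Cd68 with a log2 fold change of -0.24 in SF and Mmp9 and Itgb3 with 0.58 and 0.34 in MJ. The part of these markers in the results on the 10 genes was not tested. In such bulk samples, fewer cells of a type and less RNA per cell cannot be told apart.

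With surface proteins, 4 of the 10 genes changed against RANKL alone. The receptors Tnfrsf11a and Csf1r fell, the ligand Csf1 and the adaptor Gab2 rose, and Traf6, Oscar, Trem2, Tyrobp, Syk and Plcg2 did not pass. Of all 10874 genes tested, 17.5% were called in this comparison, 10.2% higher and 7.32% lower. Tnfrsf11a, Csf1r and Csf1 were singled out by the study on these same libraries, so their calls are not independent evidence. For RANK the study also reported lower gene and protein levels with surface proteins, by qPCR and western blot. The libraries of both groups did not overlap for 8 of the 10 genes, against 48.4% of all genes tested. The median log2 fold change of the 10 genes was -0.11, and that of all genes tested was -0.0077.

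**Figure D1:**
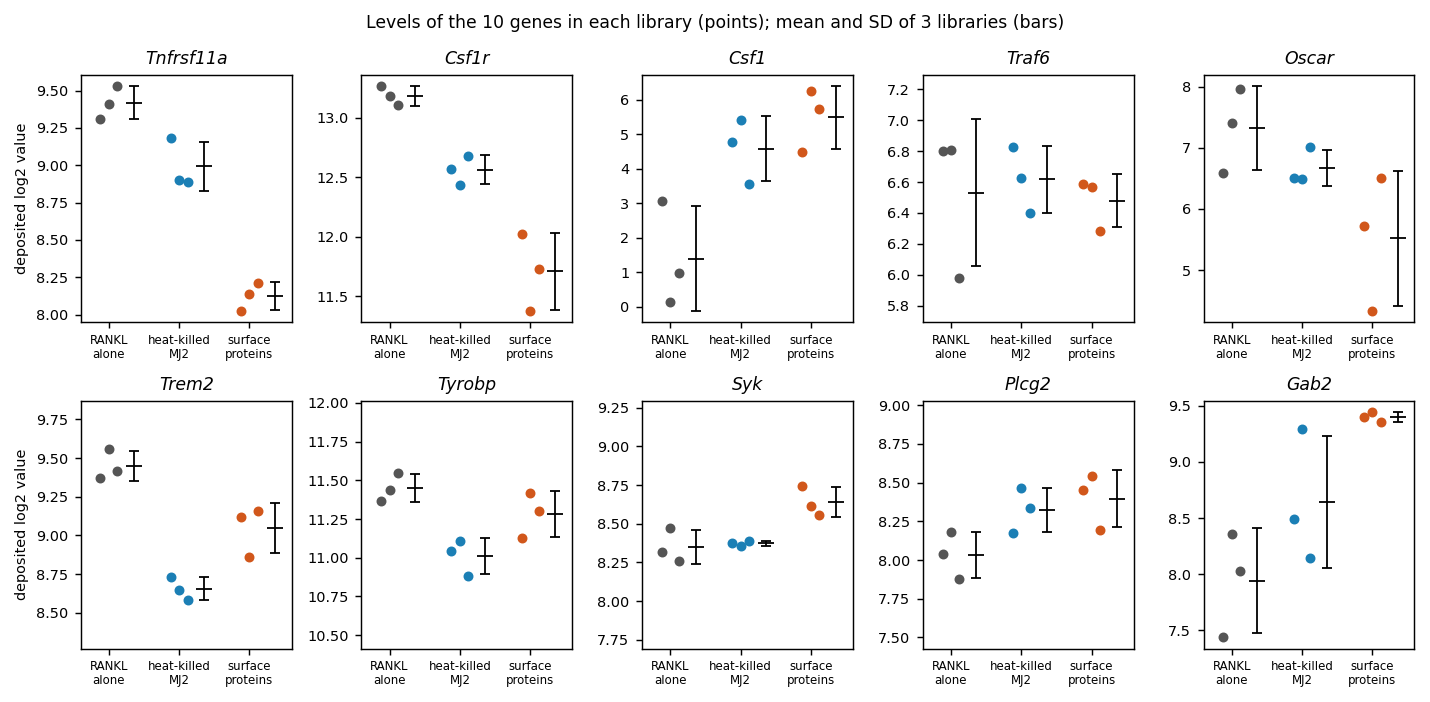
Deposited log2 value (vertical axis, a separate range for each gene) of the 10 genes in the 3 libraries of each group (points), with the mean and SD of 3 libraries (bars). Tnfrsf11a and Csf1r step down from RANKL alone to heat-killed MJ2 to surface proteins without overlap, whereas Trem2 and Tyrobp are lowest with heat-killed MJ2.

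Tnfrsf11a encodes RANK and lies on the plus strand of chromosome 1 of GRCm38, from 105780718 to 105847981. It held 634, 680 and 739 adjusted reads in NC replicates 1, 2 and 3, then 580, 477 and 474 in MJ and 259, 280 and 295 in SF. The 3 groups did not overlap, and the order was NC, MJ, SF from high to low. Tnfrsf11a fell 2.45-fold with surface proteins (-1.29 ± 0.14 on the log2 scale, fold change ± standard error, limma adjusted p = 0.0021). With heat-killed MJ2 the difference from NC was -0.43 on the log2 scale (95% interval -0.78 to -0.069, adjusted p = 0.16 from limma), which did not pass. Between SF and MJ it was -0.87 (95% interval -1.22 to -0.51, adjusted p = 0.016 from limma), past the threshold on p but short of 2-fold. It was no longer past it without SF replicate 2 or MJ replicate 1 or 3 (adjusted p = 0.053, 0.065 and 0.055 from limma).

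Csf1r encodes the receptor for M-CSF and lies on the plus strand of chromosome 18, from 61100598 to 61132149. Its libraries held 9877, 9286 and 8809 adjusted reads in NC, 6088, 5552 and 6575 in MJ, and 4161, 2657 and 3403 in SF. Again the 3 groups stood apart in the same order. Csf1r fell 2.78-fold with surface proteins (-1.47 ± 0.20 on the log2 scale, limma adjusted p = 0.0039). The MJ libraries lay 0.62 below NC on the log2 scale (log2 fold change -0.62, 95% interval -0.95 to -0.30, adjusted p = 0.052 from limma), just short of the threshold on p. Between SF and MJ the log2 fold change was -0.85 (95% interval -1.33 to -0.38, adjusted p = 0.034 from limma), again short of 2-fold. Without SF replicate 1 it was -1.01 and passed. Without any 1 of the other libraries the adjusted p was 0.054 to 0.11, no longer past the threshold on p.

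Csf1 encodes M-CSF, the ligand of that receptor, and lies on the minus strand of chromosome 3, from 107741048 to 107760469. It moved opposite to its receptor. NC held 7.42, 0.0898 and 0.972 adjusted reads, MJ 26.6, 41.6 and 10.8, and SF 21.5, 76.0 and 52.4. All treated libraries lay above all NC libraries, and SF and MJ overlapped. No NC library reached 10 adjusted reads, so Csf1 could enter the test only through the treated libraries and had to differ to do so. Its fitted log2 fold change with surface proteins was 4.11 ± 0.82 (95% interval 2.12 to 6.10, limma adjusted p = 0.014). The size depends on the constant, 1, that the log transform adds: it was 5.26 with 0.1 and 3.58 with 2. The call rests on 1 library, since without SF replicate 2 the log2 fold change was 3.72 and the adjusted p was 0.053. It was 4.95 without NC replicate 1 and 3.47 without NC replicate 2, and passed in both. With heat-killed MJ2 the log2 fold change was 3.19 (95% interval 1.18 to 5.20, adjusted p = 0.084 from limma), which did not pass, although it did without NC replicate 1 (4.03, adjusted p = 0.035 from limma). Leaving out 1 library gave log2 fold changes of 2.56 to 4.03 with heat-killed MJ2. Over all alternatives the limma adjusted p ran from 0.035 to 0.20. Between SF and MJ the log2 fold change was 0.91 (95% interval -0.57 to 2.40), an interval that spans 0.

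Il34, the other ligand of the M-CSF receptor, held between 0 and 7.78 adjusted reads in every library. Tnfsf11, which encodes RANKL, and Tnfrsf11b, which encodes its decoy receptor osteoprotegerin, were listed at 0 in all 9 libraries, which allows up to 3 reads in each.

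Of the 10 genes, 7 matched an entry in the RefSeq promoter table of GRCm38.p6. Csf1r, Tyrobp and Gab2 had none. The promoters of Tnfrsf11a, which fell, and Csf1, which rose, are printed here for the 240 bases that end 10 bases before the RefSeq start. For Tnfrsf11a this is chr1:105780473-105780712 on the plus strand and for Csf1 chr3:107760480-107760719 on the minus strand. Capitals mark the matches to 5 motifs, searched on both strands.
Tnfrsf11a promoter: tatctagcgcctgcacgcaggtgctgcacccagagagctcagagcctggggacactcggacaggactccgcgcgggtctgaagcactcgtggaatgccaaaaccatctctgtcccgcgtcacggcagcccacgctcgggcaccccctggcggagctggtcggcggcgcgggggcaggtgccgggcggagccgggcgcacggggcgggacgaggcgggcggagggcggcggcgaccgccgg
Csf1 promoter: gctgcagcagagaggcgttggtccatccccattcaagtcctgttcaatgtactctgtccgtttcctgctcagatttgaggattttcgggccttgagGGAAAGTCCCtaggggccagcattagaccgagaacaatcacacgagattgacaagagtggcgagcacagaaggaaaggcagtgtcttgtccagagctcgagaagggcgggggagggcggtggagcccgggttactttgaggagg
The NF-κB motif (GGGA, any 2 bases, then TTCC) was found once in the Csf1 window, starting 154 bases before the RefSeq start, and 1.16% of the 32851 promoters in the table hold it in the same window. The Tnfrsf11a window held none of the 5. The PU.1 motif (GAGGAA) was found in the windows of Traf6, Oscar and Trem2 and in 22.3% of all promoters. The AP-1 (TGANTCA), GAS (TTCNNNGAA) and M-box (TCATGTG) motifs were in no window of the 7 genes and in 6.58%, 6.77% and 3.13% of all promoters. A match describes the letters of the window, and binding was not measured.

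Traf6 and Gab2 are the adaptors that bind close to RANK. Traf6 encodes the ubiquitin ligase that docks on the motifs printed above and is located on chromosome 2 from 101678429 to 101701669, plus strand. It held 111, 111 and 62.3 adjusted reads in NC, 113, 97.7 and 83.4 in MJ and 94.9, 94.1 and 76.9 in SF. All groups overlapped, and the log2 fold change with surface proteins was -0.052 (95% interval -0.68 to 0.58, adjusted p = 0.90 from limma). The interval excludes a 2-fold change.

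Gab2 encodes a docking protein that links RANK and the M-CSF receptor to PI3-kinase, and it lies on the plus strand of chromosome 7 from 97081586 to 97308946. It held 172, 328 and 260 adjusted reads in NC, 359, 627 and 281 in MJ, and 676, 695 and 655 in SF. The SF libraries sat close together above all others, while MJ replicate 3 fell within the range of NC. Gab2 rose 2.75-fold with surface proteins (1.46 ± 0.25 on the log2 scale, limma adjusted p = 0.0085). The log2 fold change was 0.70 with heat-killed MJ2 (95% interval -0.18 to 1.59) and 0.76 for SF against MJ (95% interval 0.042 to 1.48, adjusted p = 0.12 from limma), and neither passed. Without MJ replicate 2, whose value was close to those of SF, the latter was 1.08 and passed.

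**Figure D2:**
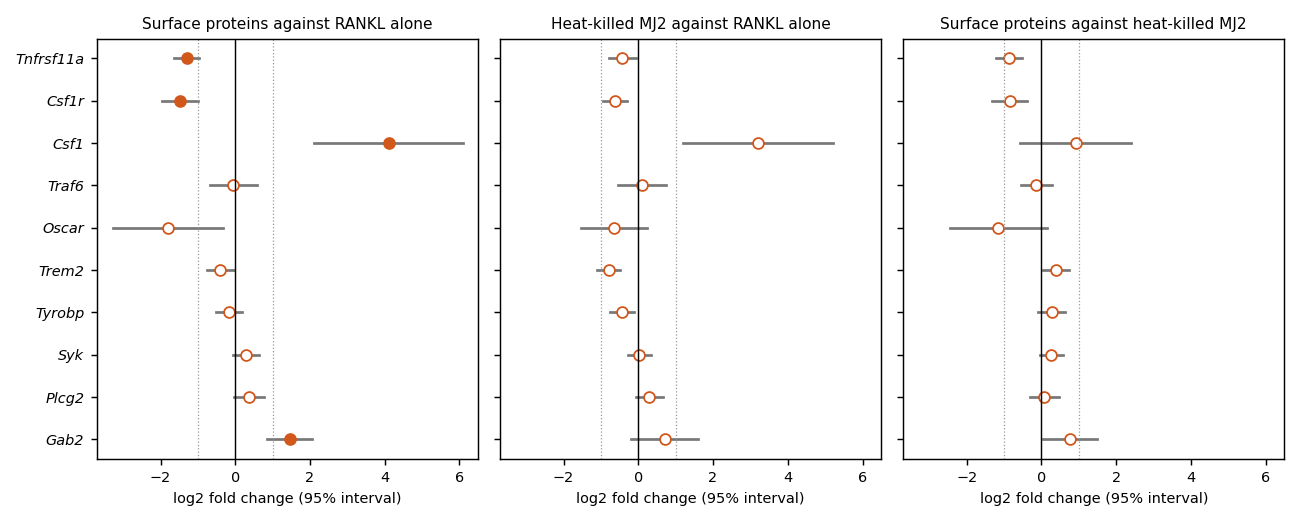
Log2 fold change (points) and 95% interval (lines) of the 10 genes in the 3 comparisons, from limma. Filled points passed the threshold and dotted lines mark 2-fold; Tnfrsf11a, Csf1r, Csf1 and Gab2 passed in the first comparison, and no gene passed in the other two.

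Oscar encodes an osteoclast-associated receptor that pairs with the Fc receptor gamma chain, and it lies on the minus strand of chromosome 7 from 3609813 to 3616157. It had the widest scatter of the receptors, with 95.6, 169 and 249 adjusted reads in NC, 90.0, 89.0 and 129 in MJ and 51.8, 19.1 and 90.1 in SF. SF lay below NC by a narrow margin, and MJ overlapped both. The log2 fold change with surface proteins was -1.80, of larger size than those of Tnfrsf11a and Csf1r, but its 95% interval ran from -3.28 to -0.33 and it did not pass (adjusted p = 0.071 from limma). It passed without SF replicate 3 (-2.30, adjusted p = 0.045 from limma), and without SF replicate 2, the lowest library, it was -1.21. Over all alternatives its limma adjusted p ran from 0.024 to 0.18. Against NC, the log2 fold change with heat-killed MJ2 was -0.65 (95% interval -1.53 to 0.23).

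**Figure D3:**
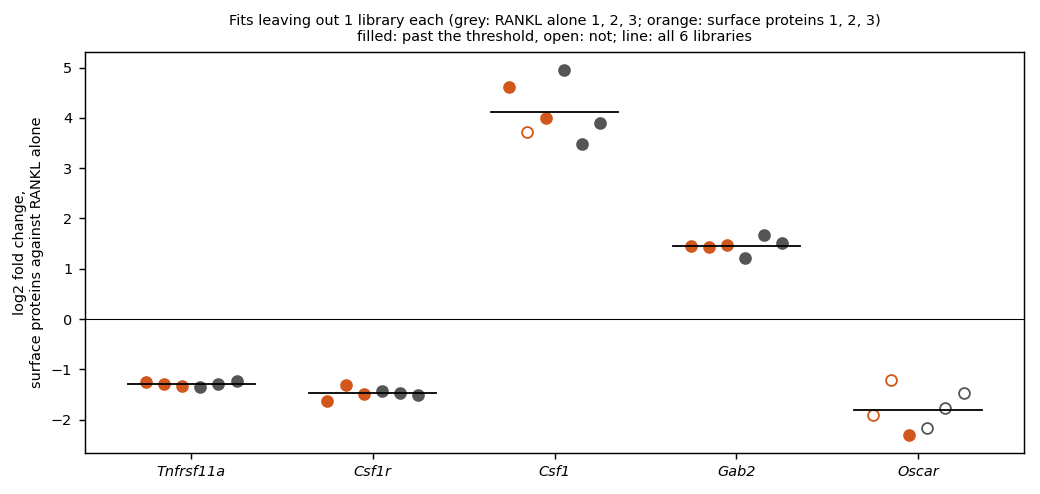
Log2 fold change of 5 genes with surface proteins against RANKL alone, when each of the 6 libraries was left out in turn (points, coloured by the group of the library left out; black lines are the fit to all 6). Filled points passed the threshold; Tnfrsf11a, Csf1r and Gab2 passed in every fit, Csf1 failed without SF replicate 2, and Oscar passed only without SF replicate 3.

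Trem2 and Tyrobp form a receptor pair, in which TREM2 binds its ligand outside the cell and DAP12 carries the ITAM printed above. Trem2 (chromosome 17, 48346401 to 48354147, plus strand) held 660, 753 and 683 adjusted reads in NC, 424, 400 and 382 in MJ, and 556, 464 and 571 in SF. Here the 3 groups stood apart in another order, with MJ lowest and SF between. Heat-killed MJ2 gave a log2 fold change of -0.79 ± 0.13 (95% interval -1.11 to -0.48, limma adjusted p = 0.025), past the threshold on p but short of 2-fold. Without any 1 of the 6 libraries the adjusted p was 0.060 to 0.093, no longer past it. With surface proteins it was -0.40 (95% interval -0.76 to -0.039, adjusted p = 0.091 from limma), and for SF against MJ it was 0.39 (95% interval 0.045 to 0.74, adjusted p = 0.11 from limma).

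Tyrobp (chromosome 7, 30413760 to 30417585, plus strand) held 2638, 2772 and 2991 adjusted reads in NC, 2112, 2209 and 1884 in MJ, and 2234, 2733 and 2524 in SF. MJ lay below both NC and SF, and SF overlapped NC. The log2 fold changes were -0.44 for heat-killed MJ2 (95% interval -0.76 to -0.11, adjusted p = 0.12 from limma) and -0.17 for surface proteins (95% interval -0.52 to 0.18). Neither passed, and both intervals exclude a 2-fold change in either direction.

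Syk and Plcg2 carry the ITAM signal towards calcium. Syk (chromosome 13, 52583173 to 52648792, plus strand) held 319, 355 and 306 adjusted reads in NC, 331, 327 and 334 in MJ and 429, 392 and 376 in SF. The SF libraries lay above the other two groups, yet only by a log2 fold change of 0.29 against NC (95% interval -0.047 to 0.63, adjusted p = 0.17 from limma). Plcg2 (chromosome 8, 117498291 to 117635142, plus strand) held 262, 289 and 234 in NC, 288, 352 and 322 in MJ and 349, 373 and 292 in SF. SF lay just above NC, and MJ overlapped both. Its log2 fold change was 0.37 with surface proteins (95% interval -0.030 to 0.76, adjusted p = 0.14 from limma). For both genes the interval excludes a 2-fold change.

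With heat-killed MJ2, 0 of the 10 genes passed in limma against RANKL alone, where 4.26% of 10814 genes tested were called, 3.37% higher and 0.897% lower. Tnfrsf11a, Csf1r, Csf1, Trem2 and Tyrobp, 5 in all, had an unadjusted p under 0.05, against 22.6% of all genes tested, and Trem2 alone had an adjusted p under 0.05, on the lower side, against 5.88% of all genes tested and 1.84% on that side. No other tool was run. The MJ libraries stood apart from NC for 5 of the 10 genes, against 30.2% of all genes. Between SF and MJ, 0 of the 10 passed, where 10.1% of 10916 genes were called, 5.08% higher and 4.97% lower. Tnfrsf11a and Csf1r had an adjusted p under 0.05, both lower in SF, against 17.9% of all genes tested and 8.65% on that side. At an unadjusted p, 4 genes were under 0.05, against 35.3% of all genes, and 6 of the 10 stood apart, against 42.3% of all genes. The comparisons of SF and of MJ with NC share their control libraries, so the values for the 10 genes are not independent between them.

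Around these 10 genes, 5 lists of other genes of the same pathways were counted, 87 genes on file in all. The study also singled out Sqstm1, Mitf, Sirpb1b, Lck and Lilrb4a, and the markers Acp5, Ctsk, Itgb3 and Fcgr3, on these libraries, so their calls are not independent evidence either. In the RANK list (RANKL, its decoy receptor, TRAF proteins and kinases of the NF-κB branch), 1 gene rose and 1 fell with surface proteins out of 13 tested, which is 15.4% against the 17.5% of all genes. The 1 that rose was Sqstm1, the scaffold protein p62, which binds TRAF6. It held 2087 to 2983 adjusted reads in NC, 4386 to 8157 in MJ and 13210 to 19380 in SF, a 6.03-fold rise (adjusted p = 9.4e-04 from limma). Traf5, another adaptor of the RANK tail, fell from between 80.6 and 167 adjusted reads to between 21.1 and 49.9 (log2 fold change -1.60, adjusted p = 0.031 from limma), a call lost in 6 of 16 alternatives, among them leaving out SF replicate 2 or 3 or NC replicate 2 or 3. Sqstm1 was also 2.86-fold higher in SF than in MJ, a call lost without SF replicate 2 or 3 or MJ replicate 1 or 3. No gene of this list passed with heat-killed MJ2 in limma, where 4.26% of all genes did, and 4 of 13 had an unadjusted p under 0.05, against 22.6% of all genes.

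In the M-CSF receptor list (adaptors, lipid and MAP kinases, shedding proteases and transcription factors), 2 of 20 tested genes passed with surface proteins, both lower, and 18 did not. The 2 make 10.0% of the list, below the 17.5% of all genes. Mitf, a transcription factor that M-CSF signalling activates in osteoclast precursors, fell 2.35-fold (log2 fold change -1.23, adjusted p = 0.0024 from limma). Its level was 1332 to 1595 adjusted reads in NC, 748 to 784 in MJ and 591 to 651 in SF. Src, a kinase needed for the ruffled border of osteoclasts, fell 2.29-fold (adjusted p = 0.021 from limma), a call lost without SF replicate 1 or 2 or NC replicate 2 or 3. With heat-killed MJ2, 0 of 21 passed in limma, where 4.26% of all genes did. At an unadjusted p 5 were under 0.05, against 22.6% of all genes, and 2 had an adjusted p under 0.05 but were short of 2-fold, Mitf (adjusted p = 0.017 from limma) and the adaptor Dok1 (adjusted p = 0.047 from limma). Src was also 2.11-fold lower in SF than in MJ and Sos1, an exchange factor for RAS, was 2.17-fold higher. Both calls were lost without SF replicate 2 or MJ replicate 1 or 3, and that of Sos1 also without MJ replicate 2.

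Other ITAM-coupled receptors and their partner chains gave 11 genes on file. With surface proteins 7 of them were tested, 5 rose and 0 fell, where 10.2% of all genes were called higher. Sirpb1b is counted among the 5, although it passed the filter only through the SF libraries. The call of Clec5a, another of the 5, was lost with equal totals and without SF replicate 2 or 3 or NC replicate 3. Trem3, a DAP12-coupled receptor, held 10.2, 20.6 and 0 adjusted reads in NC, 158, 146 and 204 in MJ, and 299, 244 and 188 in SF. Its log2 fold change with surface proteins was 5.27 ± 1.09 (limma adjusted p = 0.016), with 3.95 without NC replicate 3 and 6.16 without NC replicate 2. It did not pass without SF replicate 2 or with a constant of 0.1 before the log. Sirpb1b rose by a log2 fold change of 3.93 (adjusted p = 7.0e-04 from limma), from between 1.79 and 3.34 adjusted reads in NC to between 39.2 and 72.0. Cd300ld rose by 3.13 (adjusted p = 0.0036 from limma), from between 124 and 330 to between 1297 and 1979 adjusted reads. Fcer1g, the partner chain of OSCAR, held 2343, 2373 and 2642 adjusted reads in NC, 2737, 3006 and 3131 in MJ, and 4167, 5540 and 4084 in SF, and was not called, with a 1.86-fold difference between SF and NC (adjusted p = 0.013 from limma) that was short of 2-fold.

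With heat-killed MJ2, 4 of 8 tested ITAM-coupled receptors rose and 0 fell, where 3.37% of all genes were called higher. The call of Clec5a, 1 of the 4, was lost without any 1 of the 6 libraries. Pilrb1, a paired receptor that signals through DAP12, was at 0, 0.0563 and 0 adjusted reads in NC, 20.4, 18.5 and 12.8 in MJ, and 4.89, 0 and 0.0703 in SF. Against a floor of 3 adjusted reads in each NC library it was at least 5.74-fold higher with heat-killed MJ2. It was the 1 gene of the list called lower in SF than in MJ, by a fitted log2 fold change of -3.28 (adjusted p = 0.027 from limma), a call kept in 8 of 15 alternatives and lost without SF replicate 2 or 3 or any of the MJ replicates. No SF library held 10 adjusted reads of Pilrb1, which thus entered that test only through MJ, and without SF replicate 1 its fitted value was -4.11. Another 2 of the 8 tested genes, Sirpb1b and Cd300ld, were called higher in SF than in MJ, by log2 fold changes of 1.29 (adjusted p = 0.048 from limma) and 1.03 (adjusted p = 0.026 from limma), against 5.08% of all genes. Both calls held in 7 of 16 alternatives. The call of Sirpb1b was lost without any of the SF replicates or MJ replicate 1 or 3, and that of Cd300ld without any of the MJ replicates or SF replicate 1 or 2. Sirpb1b and Cd300ld rose with heat-killed MJ2 as well, by log2 fold changes of 2.64 and 2.10. The call of Cd300ld was lost without NC replicate 2 or 3 or any of the MJ replicates. Without MJ replicate 1 or 3 or NC replicate 2, the calls of this list were 2, Pilrb1 and Sirpb1b. The values of Sirpb1b, Cd300ld, Pilrb1, Pirb and Lilrb4a are uncertain, because each has close relatives in the genome and how shared reads were counted is not given in the sources used here. Like Csf1, the genes Sirpb1b, Card9, Siglece and Pilrb1 had no NC library at 10 adjusted reads, so they entered the comparisons with NC only through the treated group, and Trem3 and Pirb, with 2 and 1 such libraries, entered mainly through it.

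**Figure D4:**
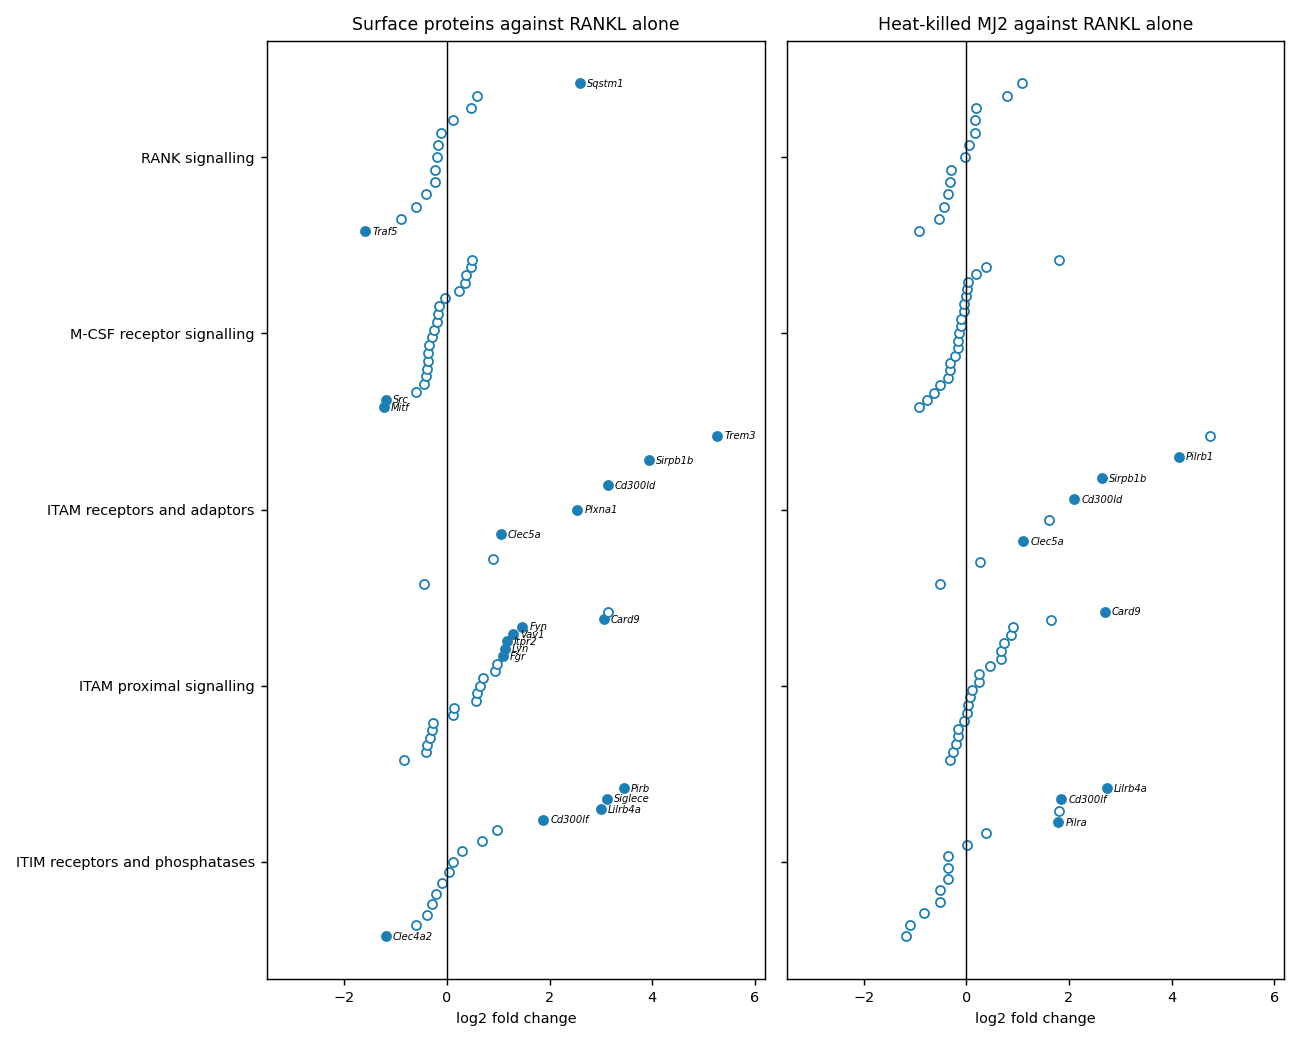
Log2 fold change of every tested gene of the 5 pathway lists (points, spread vertically by rank within a list), for surface proteins and for heat-killed MJ2 against RANKL alone. Filled, named points passed the threshold; the ITAM-coupled receptors that passed lie above 1 in both panels, and no gene of the RANK and M-CSF receptor lists passed with heat-killed MJ2.

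Among the kinases and adaptors next to the ITAM, 6 of 21 tested genes rose with surface proteins, 0 fell and 15 did not pass, which is 28.6% against 17.5% of all genes. Card9, which links SYK to NF-κB, rose by a log2 fold change of 3.06 (adjusted p = 0.012 from limma), from 1.79, 4.43 and 7.90 to 69.6, 51.9 and 19.8 adjusted reads. The Src-family kinase Fyn rose 2.77-fold (adjusted p = 0.0021 from limma), from between 165 and 186 to between 422 and 534 adjusted reads. Vav1, a signalling protein of blood cells, rose 2.44-fold (adjusted p = 0.0040 from limma). Of the 6 that rose, Card9 had no NC library at 10 adjusted reads and entered this test only through SF. The call of Fgr, another of the 6, was kept in 7 of 16 alternatives and lost without any 1 of the 6 libraries. With heat-killed MJ2 only Card9 passed, 1 of 20 tested, close to the 4.26% of all genes (log2 fold change 2.70, adjusted p = 0.037 from limma), a call kept in 6 of 15 alternatives and lost without NC replicate 1 or 2 or any of the MJ replicates. Between SF and MJ, Fyn and Vav1 were higher in SF by 2.33-fold and 2.06-fold, and so was Lck (2.82-fold), 3 of 20 tested where 10.1% of all genes were called. The call of Lck was lost without any 1 of the 6 libraries, that of Fyn without MJ replicate 1 and that of Vav1 without SF replicate 2, with quantile normalization or with equal totals.

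The inhibitory side of the same balance, ITIM receptors and the phosphatases they recruit, held 15 tested genes, of which 4 rose and 1 fell with surface proteins, which is 33.3% against 17.5% of all genes. Pirb, an inhibitory receptor, rose by a log2 fold change of 3.44 (adjusted p = 0.0040 from limma), with 4.59, 18.4 and 5.91 adjusted reads in NC, 9.24, 1.89 and 4.88 in MJ, and 85.2, 103 and 107 in SF. Siglece and Lilrb4a, inhibitory receptors too, rose by 3.11 and 2.99. Siglece, with no NC library at 10 adjusted reads, is counted among the 4 although it entered this test only through SF. Pirb, with 1 such library, entered mainly through SF. The 1 that fell was Clec4a2, a C-type lectin receptor, by a log2 fold change of -1.19, from between 480 and 807 to between 243 and 306 adjusted reads. Lilrb4a also rose with heat-killed MJ2, by 2.73, to between 3166 and 4630 adjusted reads from between 329 and 718 in NC. Cd300lf and Pilra rose with heat-killed MJ2 by 1.85 and 1.79, making 3 of 14 tested, which is 21.4% against 4.26% of all genes. The median log2 fold change of these 14 was -0.35, and 8 of them lay wholly below NC against 4 above, where 30.2% of all genes stood apart. Among the 8 were Cd300a (-1.18, adjusted p = 0.11 from limma) and Dok3 (-0.82, adjusted p = 0.025 from limma), which were not called. Pirb, Siglece and Sirpa were higher in SF than in MJ by 4.15, 1.70 and 1.04, making 3 of 16 tested, where 10.1% of all genes were called. Pirb, with no MJ library at 10 adjusted reads, entered that test only through SF and so had to differ, and Siglece, with 1 such library, entered mainly through it. The calls of Cd300lf and Pilra were lost without MJ replicate 1 or 3 or NC replicate 3, that of Cd300lf also without MJ replicate 2 or NC replicate 1 and that of Pilra also without NC replicate 2. Those of Siglece and Sirpa were lost without MJ replicate 1 or 3, and also without SF replicate 3 for Siglece and SF replicate 2 for Sirpa. These lists, like the 10 genes, were described and not tested as sets.

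The genes most alike in pattern to the receptors and the ligand were found by the root mean square distance between log2 values, each centred on its own mean over the 9 libraries, among 11192 other genes. Nearest to Tnfrsf11a were Smco4 (distance 0.13), Nsdhl, an enzyme of cholesterol synthesis (0.14), and Tgfbr1, a receptor for TGF-β (0.15). Nearest to Csf1r were Uqcrh, a subunit of respiratory complex III (0.12), St8sia4 (0.14) and Hsph1, a heat shock protein (0.14). Nearest to Csf1, at larger distances, were 5033406O09Rik (0.57), the cyclin Ccnd2 (0.71) and Tmem154 (0.71).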

How the data were processed

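RNA was sequenced from RAW264.7 cells with a QuantSeq 3′ mRNA-Seq kit as 75 bp single-end reads. The authors deposited 1 table per library, with a log2 value in each of 23282 gene rows. The submitters' processing notes name Bowtie2, bedtools and mm10. Versions, annotation, strand and the counting of shared reads are not given in the sources used here. The methods name quantile normalization, but the sorted columns differ by up to 1.60, so the scaling is not known beyond that. Adjusted reads are 2 raised to the value, minus 1, and their totals stand in for depth.

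The deposited values were compared with limma 3.58.1 in R 4.3.3 (lmFit, eBayes), each comparison on its own 6 libraries, with Benjamini-Hochberg adjustment over all genes tested. Genes needed at least 10 adjusted reads in at least 3 libraries. The code was tested on simulated data. Tables were read and summarised in pandas 2.3.3 and numpy 2.4.6 under Python 3.11.15, and plots drawn with matplotlib 3.10.9. Each library counted as 1 sample. Libraries of a group differed by more than sampling noise, with a chi-square per degree of freedom of 7.47 to 21.2. That was over genes with a mean of at least 100 adjusted reads. Such a spread does not tell separate cultures from technical replicates. Replicate numbers were not used as a block. Loci are from GENCODE M21 on GRCm38, the build that mm10 names, and no other annotated gene overlapped the last exon of any of the 10 genes.

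The 10 genes and the lists were chosen with earlier results of these data known. All 10 are named, and for each list and comparison the 3 largest changes among the genes that passed. For Tnfrsf11a, Csf1r and Csf1 the 3 genes most alike in pattern are named. Fcer1g, Il34, Tnfsf11, Tnfrsf11b, Clec4a2, Cd300a, Dok3, Cd68, Mmp9, Itgb3, Clec5a, Dok1 and Fgr were named after their values were seen. Alternatives were other scalings, filters, constants before the log, call rules and variance models, 1 joint model of the 9 libraries, blocking on the replicate number, and leaving out each library. Floors of 3 reads cover counting error only, since reads from PCR are not independent molecules.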

Additional observations from a re-analysis of the deposited data

How the results depend on the processing

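Over 478 refits of the 10 genes in the 3 comparisons, 459 kept the direction and the side of the threshold, 9 passed where the reported fit did not, 1 no longer passed (Csf1 without SF replicate 2) and 9 turned direction, all of them in genes that were not called. The cause was not tested. Leaving out 1 library gave log2 fold changes of -0.33 to 0.086 for Traf6 in SF against NC, -0.19 to 0.22 for Traf6 and -0.024 to 0.083 for Syk in MJ against NC, and -0.0013 to 0.17 for Plcg2 in SF against MJ, which was -0.0092 with equal totals.

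For SF against NC, leaving out 1 library gave 3 to 5 of the 10 genes, 16 to 20 genes of the pathway lists (20 in the reported fit) and 1490 to 1876 genes in all (1901), and no limit on the fold change gave 3163. For MJ against NC, leaving out 1 library gave 0 to 1 of the 10 genes, 3 to 5 genes of the lists (8) and 189 to 334 genes in all (461), with over 1.5 times fewer genes in all without any of the MJ replicates (189, 261 and 206) or NC replicate 3 (292), and over 1.5 times fewer list genes without any 1 library. One of the 10 passed in each of 4 other settings: Csf1 with all 9 libraries in one fit, with trend and robust variance, or with an unadjusted p and 2-fold, and Trem2 with no limit on the fold change. Without a filter on low values 267 genes and 3 list genes were called, and with an unadjusted p 799 and 13. For SF against MJ, leaving out 1 library gave 0 to 1 of the 10 genes, 2 to 11 list genes (12) and 342 to 1167 genes in all (1098), with the lower counts without MJ replicate 1 (342, and 2 list genes), MJ replicate 3 (424 and 3), SF replicate 2 (612 and 4) or SF replicate 3 (644). With no limit on the fold change 2 of the 10 genes and 1949 genes in all passed, and without a filter 6 list genes did. The balance of directions in SF against MJ moved with the scaling. The reported fit called 555 genes higher and 543 lower, and equal totals gave 453 and 645.

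Same-numbered libraries of different groups deviated together only weakly (correlation 0.018 to 0.11). Still, each correlated best with its own number in 18 of 18 cases, a hint from the data and not from the design. These cases use each pair of libraries from both sides, so they are not independent. With a replicate block, 289 genes and 5 list genes were called for MJ against NC and 7 list genes for SF against MJ, and the block changed no call of the 10 genes, though the adjusted p of Trem2 in MJ against NC went from 0.025 to 0.083. Setting values under 0.5 adjusted reads to 0, chosen after seeing the data, changed no call of the 10 genes either. Depth limits Csf1 most, since its control libraries held under 10 adjusted reads each.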
